A study of Arabidopsis thaliana with 12 samples.

Results

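GSTU1 to GSTU7 are 7 tau class glutathione transferase genes that stand next to each other on chromosome 2 of *A. thaliana*. They were taken from the count table by locus identifier, 7 of 38618 loci, and were chosen by their place in the genome and by their logFC under PO and TO against DMSO in these same libraries. RNAseq was performed on leaves of Col-0 plants after 1 h with 10 μM PO (progesterone in 0.12% DMSO), after 1 h with 10 μM TO (testosterone) or after 1 h with 0.12% DMSO as mock treatment, in 4 libraries per treatment. The treatment protocol gives plants of 7 days moved to a nutrient-poor medium and 2 days of adaptation, whereas the growth protocol gives seedlings of 10 days. The solvent of TO is not named separately, and the number of plants pooled in a library is not given in the sources used here. All groups share the accession and the medium. The study calls the replicates biologically independent, and no label says more of their origin, so the errors below measure the spread between these libraries.

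Glutathione transferases join the tripeptide glutathione to reactive, electrophilic molecules, which are then moved into the vacuole. The tau class is found in plants, and its genes are known for their induction by herbicide safeners, oxidised lipids and other foreign compounds, in part through TGA transcription factors that bind promoter elements with the core TGACG. PO and TO share the steroid ring system and an unsaturated ketone in the A ring. They differ at the D ring, where PO carries an acetyl side chain and TO a hydroxyl group.

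The 7 genes spanned chr2:12617936-12632538 (TAIR10.1), a stretch of 14603 bases, and all lay on the minus strand with 1 annotated transcript of 2 exons. From the left, the order was GSTU7 (AT2G29420), GSTU6 (AT2G29440), GSTU5 (AT2G29450), GSTU4 (AT2G29460), GSTU3 (AT2G29470), GSTU2 (AT2G29480) and GSTU1 (AT2G29490). The spacing was uneven: 3171 bases lay between GSTU6 and GSTU5, but only 19 between GSTU2 and GSTU1, so that the region upstream of GSTU2 runs into the last exon of GSTU1. Over the 21 pairs, identity of the coding sequences ranged between 61.9% and 85.5%. GSTU1 and GSTU2 were the closest pair, GSTU5 and GSTU6 shared 83.1%, and GSTU7 stood apart with 61.9% to 66.5%. No stretch of 50 bases in the exons of any member occurred elsewhere in the genome, whereas at 30 bases up to 3.36% of the stretches did (GSTU2).

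The 250 bases upstream of the annotated start are shown for GSTU1 and GSTU7, the members called under both steroids, and for GSTU5, the abundant member with nearly equal levels in all treatments. They were read from the TAIR10.1 genome on the minus strand at chr2:12632539-12632788 (GSTU1), chr2:12618900-12619149 (GSTU7) and chr2:12625791-12626040 (GSTU5). Capitals mark TGACG on the printed strand or CGTCA, the same letters on the other strand.
GSTU1: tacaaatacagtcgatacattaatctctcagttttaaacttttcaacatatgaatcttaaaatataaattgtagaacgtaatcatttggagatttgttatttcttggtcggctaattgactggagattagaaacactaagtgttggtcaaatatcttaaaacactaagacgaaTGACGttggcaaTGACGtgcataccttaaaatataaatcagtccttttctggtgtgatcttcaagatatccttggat
GSTU7: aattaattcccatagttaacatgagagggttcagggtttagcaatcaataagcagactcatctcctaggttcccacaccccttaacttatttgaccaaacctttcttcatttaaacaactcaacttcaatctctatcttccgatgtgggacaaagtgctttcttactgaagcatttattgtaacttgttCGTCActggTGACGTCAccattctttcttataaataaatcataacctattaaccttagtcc
GSTU5: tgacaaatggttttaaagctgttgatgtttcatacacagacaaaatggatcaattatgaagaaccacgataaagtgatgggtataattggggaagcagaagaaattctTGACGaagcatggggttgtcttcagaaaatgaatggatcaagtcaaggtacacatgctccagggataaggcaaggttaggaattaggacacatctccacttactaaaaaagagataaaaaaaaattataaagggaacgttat

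TGACG was found on either strand in the upstream windows of 5 of 7 members. GSTU1 held 2 copies, beginning 77 and 65 bases before the start and thus 12 bases apart. GSTU7 held 3 copies at 61, 52 and 49 bases, of which the copies at 52 and 49 overlap, as TGACG and CGTCA share letters in a palindrome. GSTU3 (at 105 bases), GSTU5 (at 142 bases) and GSTU6 (at 162 bases) held 1 copy each, GSTU2 and GSTU4 none. GSTU2 nevertheless had the largest logFC of the members under both steroids (2.62 for PO and 2.83 for TO), on few counts. A link between copies and logFC was not tested. Of 27443 protein-coding genes, 18.6% held TGACG in the same window. A pair of copies that do not overlap and begin within 30 bases of each other was present in GSTU1 and GSTU7 and in 0.998% of all windows. These are matches of letters, not sites of binding. The windows of GSTU5 and GSTU7 also overlap the annotated small loci AT2G29452 and AT2G00850, which had 4 and 3 counts in all libraries together.

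The libraries held 45185769 to 63445014 counts under PO, 41036335 to 51856000 under TO and 50443138 to 60728111 under DMSO, and 23203 loci passed the filter on low counts, all 7 members among them. Levels are given as CPM, counts per 1000000 counts of the library after TMM scaling. The leaf label was checked with markers. The summed level of RBCS1A, LHCB1.1, CA1 and RCA was 16200 to 18300 CPM under PO, 13700 to 17000 CPM under TO and 15700 to 20500 CPM under DMSO. The 6 root markers summed to 1.27 to 3.83 CPM under PO, 1.63 to 4.8 CPM under TO and 1.5 to 2.78 CPM under DMSO. IRT1 was at 0 in all PO and DMSO libraries, while WOX5 had a mean of 1.36 CPM under DMSO. The 4 flower markers reached at most 15.2 CPM in sum, mostly from PI. AP1 and AP3 had no counts under DMSO and did not pass the filter, with 8 and 13 counts under PO and 4 and 14 under TO. No tested marker of these 3 lists was called by edgeR under either steroid. Unadjusted p was under 0.05 for LHCB1.1 under PO and PLT1 under TO, and DESeq2 called LHCB1.1 under PO (logFC −0.66 in edgeR).

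GSTU1, GSTU2 and GSTU7 were higher in all 4 PO and all 4 TO libraries than in any DMSO library. The other members were not: GSTU3 and GSTU4 were above the DMSO range in 3 of 4 libraries of each steroid, while GSTU5 and GSTU6 overlapped it. By edgeR's quasi-likelihood test with adjusted p under 0.05, 2 of 7 members were called under PO (GSTU1 and GSTU7), beside 0.159% of all tested loci called higher. Under TO 3 of 7 were called (GSTU1, GSTU2 and GSTU7), beside 0.246% of all tested loci. A lack of overlap, every steroid library above every DMSO library, was found for 2.85% of tested loci under PO and 2.90% under TO. As the members were chosen by these contrasts, which also share their DMSO libraries, the counts and the values in the following paragraphs are a description, without test. In leaves as a whole, a change in the number of cells of a type and in RNA per cell cannot be told apart.

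**Figure D1:**
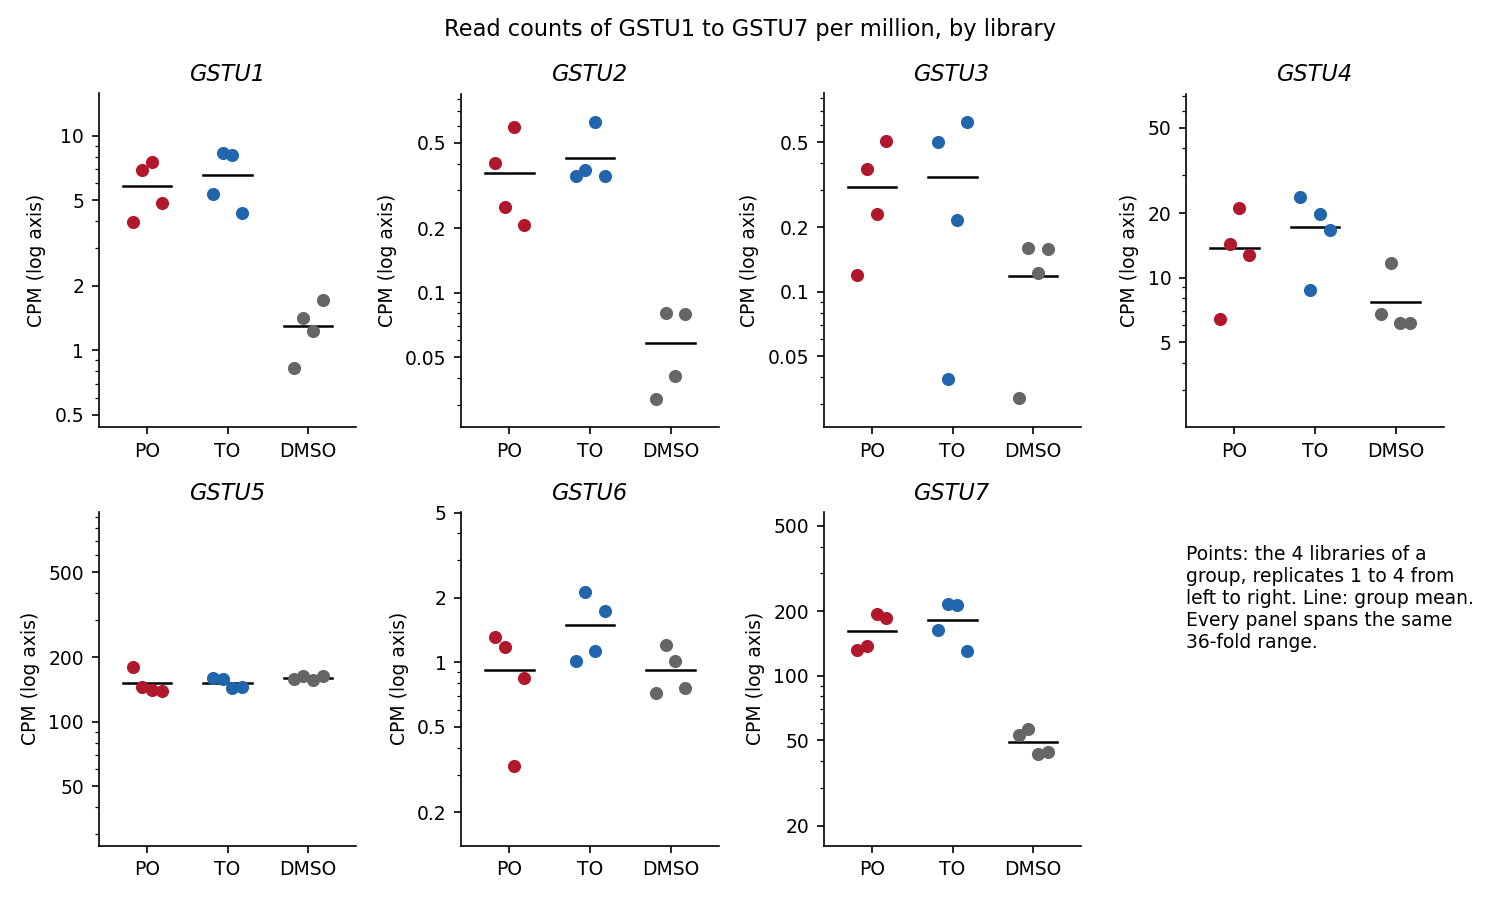
Level of each member in CPM (log axis) in the 4 libraries of PO, TO and DMSO, with the group mean as a line. In GSTU1, GSTU2 and GSTU7 the steroid points lie above all DMSO points, the PO and TO points overlap in every panel, and GSTU5 is nearly flat at 140 to 180 CPM.

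GSTU7, at the left end of the cluster, was abundant in all libraries. It had 132, 137, 193 and 185 CPM in the PO libraries and 164, 217, 214 and 130 CPM in the TO libraries, against 52.8, 56.5, 43.1 and 44.3 CPM in the DMSO libraries. The steroid libraries did not overlap with DMSO, and the spread within DMSO was small. The means were 162 ± 32 CPM under PO, 181 ± 42.0 CPM under TO and 49.2 ± 6.54 CPM under DMSO (SD, n = 4 each). This gave a logFC of 1.72 (SE 0.18) for PO and 1.88 (SE 0.18) for TO. The summed CPM of all 7 members was 335 ± 25.2 under PO, 359 ± 43.6 under TO and 219 ± 10.8 under DMSO.

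GSTU1, at the other end of the cluster, had the larger logFC of the pair. Its levels were 3.95, 6.94, 7.59 and 4.84 CPM under PO, 5.38, 8.33, 8.15 and 4.38 CPM under TO, and 0.829, 1.41, 1.23 and 1.71 CPM under DMSO. All steroid libraries lay above the highest DMSO library, and TO replicate 4 and PO replicate 1 were the lowest of their groups. The means of 5.83 ± 1.72 CPM (PO) and 6.56 ± 1.98 CPM (TO) were 4.52-fold and 5.09-fold the DMSO mean of 1.29 ± 0.369 CPM (SD, n = 4 each). The logFC was 2.18 (SE 0.28) for PO and 2.35 (SE 0.29) for TO.

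GSTU2, adjacent to GSTU1, was hardly detected in mock-treated leaves. The counts were 20, 16, 36 and 9 under PO and 18, 19, 26 and 18 under TO, against 2, 4, 2 and 4 under DMSO. Hence this member passed the filter on low counts only through the steroid libraries. The ratio of summed counts was 6.55 for PO (95% interval 3.56 to 13.2, counting error only) and 7.3 for TO (3.96 to 14.7). Of all counts between 1 and 20 in the table, 70.6% were even, so that both mates of a read pair may have been counted. With the sums taken as pairs, the interval was 2.73 to 18.7 for PO and 3.04 to 20.8 for TO. The logFC was 2.62 (SE 0.51) for PO and 2.83 (SE 0.51) for TO. The call of GSTU2 under TO was lost when any DMSO or any TO library was left out.

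**Figure D2:**
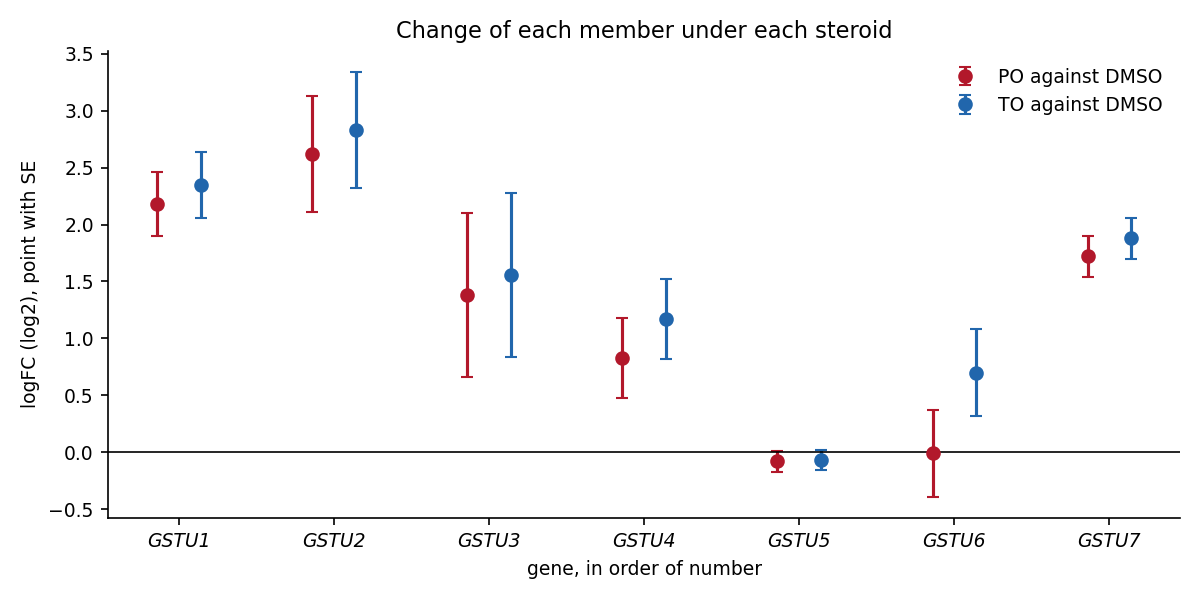
logFC of each member under PO and under TO against DMSO (log2 scale), with the SE as bars and the genes in order of their number. GSTU1, GSTU2 and GSTU7 lie between 1.72 and 2.83, GSTU3 and GSTU4 between 0.83 and 1.56 with wide errors, and GSTU5 at −0.08 and −0.07.

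GSTU3 and GSTU4 gave intermediate and scattered values. GSTU4 had 6.38, 14.4, 21.1 and 12.8 CPM under PO and 23.7, 8.77, 19.8 and 16.6 CPM under TO, against 6.73, 11.7, 6.11 and 6.17 CPM under DMSO. PO replicate 1 and TO replicate 2 fell within the DMSO range, and DMSO replicate 2 was the only mock library above 6.73 CPM. The logFC was 0.83 (SE 0.35) for PO and 1.17 (SE 0.35) for TO. GSTU3 had 6, 24, 14 and 22 counts under PO and 26, 2, 9 and 32 counts under TO, against 2, 8, 6 and 8 counts under DMSO. Again PO replicate 1 and TO replicate 2 were the lowest of their groups. Like GSTU2, GSTU3 passed the filter on low counts only through the steroid libraries. The ratio of summed counts was 2.67 for PO (95% interval 1.65 to 4.46, counting error only) and 3.11 for TO (1.93 to 5.17). Of its 12 counts, 11 were even. With the sums taken as pairs, the interval was 1.34 to 5.68 for PO and 1.55 to 6.49 for TO. The groups overlapped, however, and each logFC (1.38 for PO, 1.56 for TO) had an SE of 0.72.

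GSTU5, annotated as auxin-inducible, was the steadiest member. It had 180, 145, 141 and 140 CPM under PO and 160, 159, 144 and 146 CPM under TO, against 158, 163, 157 and 163 CPM under DMSO. The logFC of −0.08 (SE 0.09) for PO and −0.07 (SE 0.09) for TO was smaller than its error. The coefficient of variation was 12.7% under PO, 5.52% under TO and 2.05% under DMSO, and PO replicate 1 lay apart above the other PO libraries. GSTU6, the closest relative of GSTU5 in the cluster, had 1.32, 1.18, 0.33 and 0.849 CPM under PO and 1.01, 2.13, 1.13 and 1.74 CPM under TO, against 0.718, 1.21, 1.02 and 0.756 CPM under DMSO. Its groups overlapped throughout. The logFC was −0.01 (SE 0.38) for PO, without a stable sign, and 0.70 (SE 0.38) for TO.

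Per kb of exon, the order of the members in DMSO was GSTU5 (126 ± 2.58 CPM per kb), GSTU7 (55.5 ± 7.37), GSTU4 (6.53 ± 2.3), GSTU1 (1.17 ± 0.334), GSTU6 (0.695 ± 0.174), GSTU3 (0.111 ± 0.0564) and GSTU2 (0.0612 ± 0.0268; SD, n = 4). The libraries of the neighbours GSTU1 and GSTU6, and of GSTU3 and GSTU2, overlapped. Under the steroids GSTU7 came first, with 183 ± 36.1 CPM per kb under PO and 204 ± 47.3 under TO, followed by GSTU5 with 119 ± 15.2 and 120 ± 6.6. GSTU4, GSTU1 and GSTU6 kept their places, although the libraries of GSTU4 and GSTU1 overlapped, and GSTU2 came before GSTU3, both at or below 0.446 CPM per kb and overlapping. GSTU7 thus held 56.6 ± 6.27% of the summed level per kb of exon under PO and 58.4 ± 5.84% under TO, against 29.1 ± 2.42% under DMSO. The share of GSTU5 was 37.7 ± 7.28% under PO and 35 ± 4.92% under TO, against 66.4 ± 3.04% under DMSO. With the same counts of whole exons divided by coding length, GSTU7 and GSTU5 were no longer apart. They had 237 ± 46.8 and 225 ± 28.6 CPM per kb under PO and 265 ± 61.4 and 225 ± 12.4 under TO. Reads from untranslated parts stay in these counts. GSTU5 has 675 coding bases among 1270 exonic ones, and GSTU7 has 684 among 887. The change of divisor thus raises GSTU5 more than GSTU7, and the values are not levels of coding sequence. GSTU5 still led under DMSO with 237 ± 4.86 CPM per kb against 71.9 ± 9.55 for GSTU7.

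**Figure D3:**
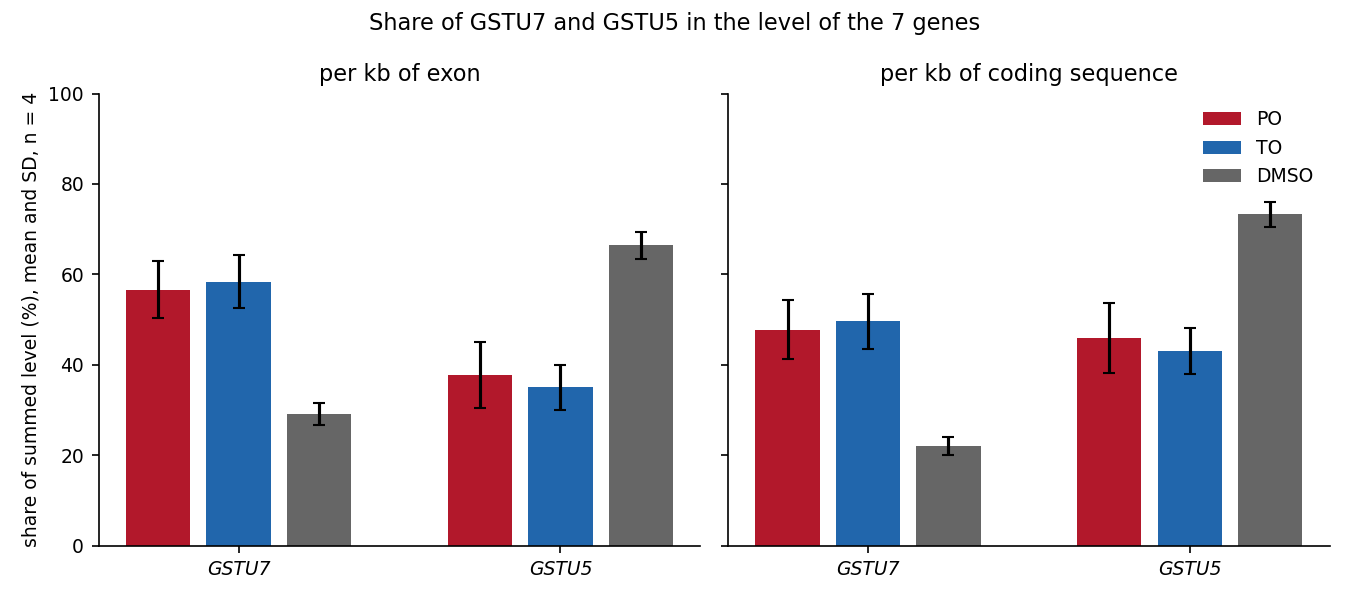
Share of GSTU7 and GSTU5 in the summed level of the 7 genes (%, bars from 0, mean and SD over 4 libraries), per kb of exon on the left and per kb of coding sequence on the right. On the right the same counts of whole exons are divided by coding length. On either length GSTU5 has the larger share under DMSO only. The 2 genes are close under PO and TO with coding length as divisor, which raises GSTU5 more than GSTU7.

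The comparison of PO with TO was made at the same dose and time. The members were not chosen by it directly. It is, however, the difference of the logFC of PO and TO against DMSO, by which they were chosen, and so is not independent of the choice. For this 1 pair of compounds no member was called by edgeR, with adjusted p between 0.672 and 0.995 over all tested loci; none had an unadjusted p under 0.05, and DESeq2 called 0. Of all tested loci 0% were called (0 of 23203; 1782 had an unadjusted p under 0.05, and DESeq2 called 4). For GSTU5 the logFC of PO over TO was −0.00 (SE 0.09), and its 95% interval of −0.19 to 0.19 was the narrowest. For GSTU7 the logFC was −0.16 (SE 0.17, interval −0.53 to 0.21), for GSTU1 −0.16 (SE 0.26, −0.73 to 0.40) and for GSTU4 −0.33 (SE 0.34, −1.07 to 0.40). GSTU2 gave −0.21 (SE 0.42, −1.1 to 0.69) and GSTU3 −0.18 (SE 0.65, −1.58 to 1.23), so that differences of 2-fold are within the intervals of both. The largest difference was that of GSTU6, with −0.71 (SE 0.38, −1.52 to 0.10; unadjusted p = 0.0821, adjusted p = 0.672, edgeR). All 7 estimates were at or below 0, beside a median of 0.00 over all tested loci. Those of GSTU2, GSTU3 and GSTU5 changed sign when single libraries were left out. An acetyl group in place of the hydroxyl group at the D ring was thus not accompanied by a detectable difference, but the intervals do not show that PO and TO acted alike.

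**Figure D4:**
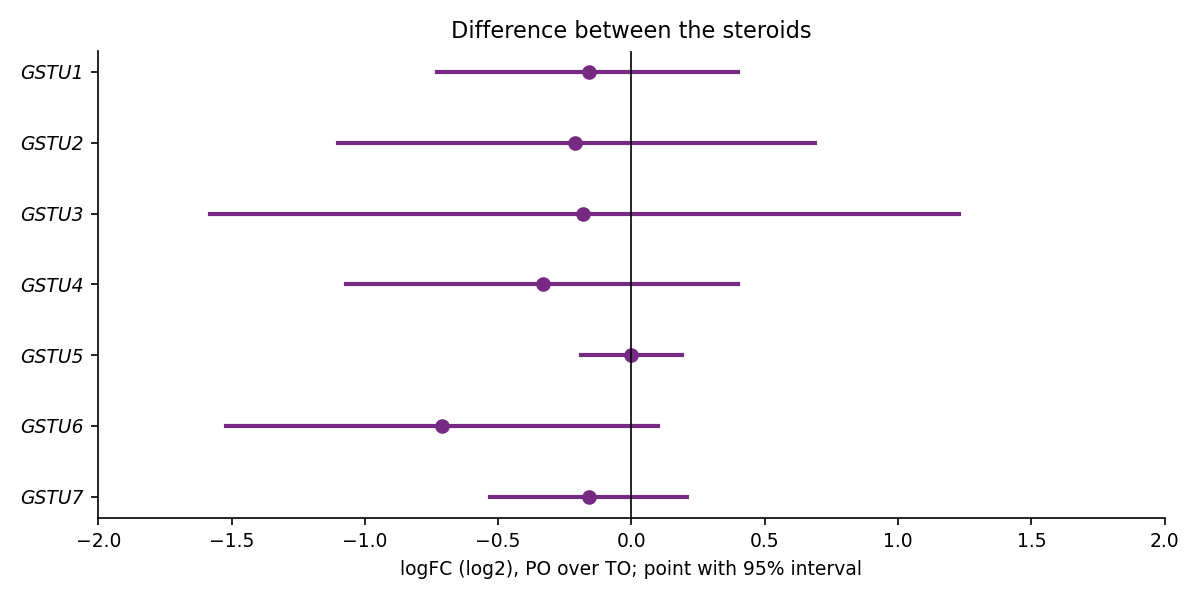
logFC of PO over TO (log2 scale) for each member, as a point with its 95% interval. All intervals include 0, the narrowest for GSTU5 (−0.19 to 0.19) and the widest for GSTU3 (−1.58 to 1.23).

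Across the 12 libraries log2 CPM of GSTU1 correlated with GSTU7 (r = 0.95) and with GSTU2 (r = 0.94), which includes the difference between treatments. After the mean of each treatment was removed, r was 0.47 and 0.57 for the same pairs, and the median over the 21 pairs was −0.05, with 9 pairs above 0. GSTU3 and GSTU4, in contrast, kept most of their correlation without the treatment means (r = 0.60, beside 0.68 with them). This was the highest of the 21 values, and GSTU4 had equally large negative ones with GSTU6 (−0.60) and GSTU5 (−0.59). Within treatments, r of GSTU3 and GSTU4 was 0.54 (PO), 0.85 (TO) and 0.29 (DMSO). GSTU3 had only 2 counts in TO replicate 2 and in DMSO replicate 1. The members did not scatter together as a group. In TO replicate 2, GSTU3 was 2.32 and GSTU4 0.88 below the group mean on the log2 scale, while GSTU1, GSTU6 and GSTU7 were 0.40, 0.57 and 0.29 above it. In PO replicate 1, GSTU1, GSTU3, GSTU4 and GSTU7 were below and GSTU2, GSTU5 and GSTU6 above the group mean. These correlations describe 12 libraries, of which 4 each share a treatment.

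**Figure D5:**
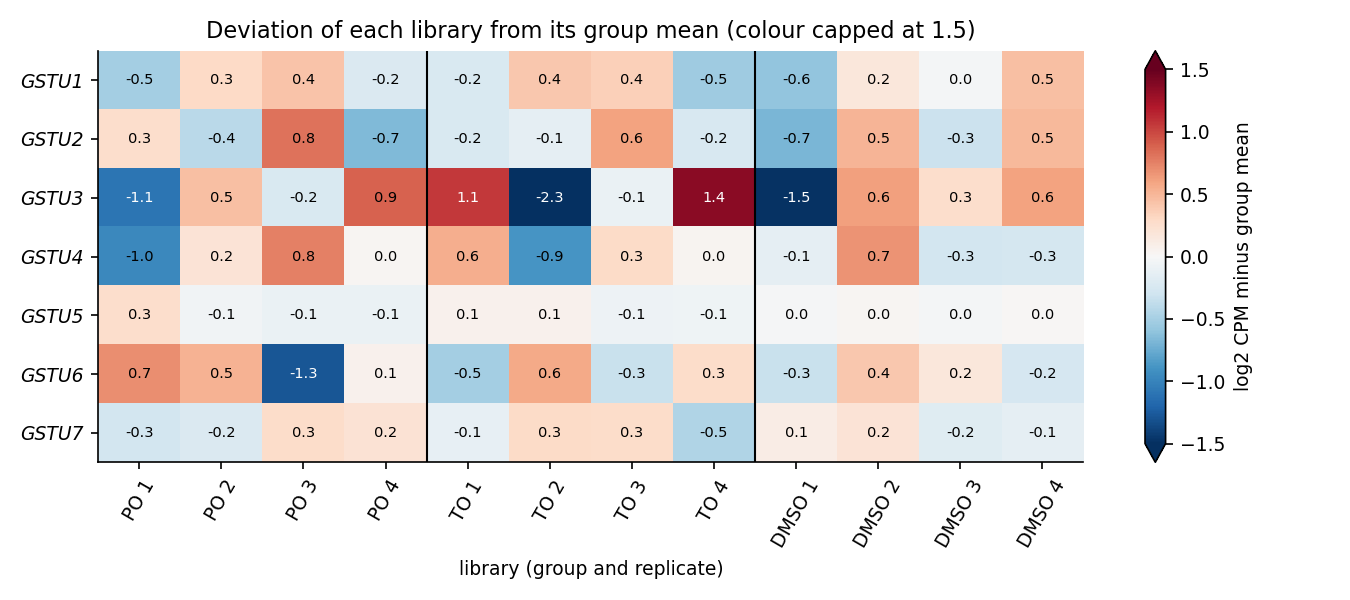
log2 CPM of each member in each library minus the mean of its treatment, for PO, TO and DMSO from left to right (blue below, red above the mean, colour capped at 1.5). GSTU5 stays close to 0, and GSTU3 and GSTU4 are low together in PO replicate 1 and TO replicate 2, where GSTU6 is high.

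Several annotated loci overlap the members on the opposite strand. AT2G08340, a long non-coding RNA, covers 559 exonic bases of GSTU7 (63%), and its counts were 85.7% to 90.8% of those of GSTU7. AT2G29485 covers 669 exonic bases of GSTU2 (70.3%) and had 167 counts in all, beside 174 for GSTU2. Both had 2, 4, 2 and 4 counts in the DMSO libraries. Their logFC followed those of the members they overlap, with 1.74 (PO) and 1.89 (TO) for AT2G08340, called under both steroids by edgeR, and 2.59 (PO) and 2.73 (TO) for AT2G29485, called under TO. The libraries kept strand by their preparation, but the strand setting of the counting is not given in the sources used here. Hence sense and antisense transcripts cannot be told apart in these counts. Nor can the calls of AT2G08340 and AT2G29485 be separated from those of GSTU7 and GSTU2. AT2G29430 overlaps GSTU6 by 398 bases but had only 40 counts in all libraries. MTPB1, which encodes a metal tolerance protein and overlaps the end of GSTU7 by 52 bases, had 1.63 ± 0.188 CPM under PO, 2.1 ± 0.315 CPM under TO and 0.933 ± 0.182 CPM under DMSO (SD, n = 4 each). Its logFC was 0.80 for PO (adjusted p = 0.175) and 1.17 for TO (adjusted p = 0.0262, edgeR). MTPB1 had 962 counts in all libraries, beside 80705 for GSTU7. Whether reads of GSTU7 are among the counts of MTPB1 was not tested. The other 5 flanking protein-coding genes were called neither by edgeR nor by DESeq2, and only AT2G29500 under PO had an unadjusted p under 0.05 (0.047, edgeR). SMO2-2 (a sterol methyl oxidase), TOPP1 (a protein phosphatase) and AtIPCS3 (an inositol phosphorylceramide synthase) had logFC between −0.01 and 0.07, AT2G29510 had 0.24 (PO) and 0.16 (TO), and the small heat shock protein gene AT2G29500 next to GSTU1 had −0.65 (PO) and −0.43 (TO).

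Among the other tau genes, GSTU8 to GSTU28, 18 of 21 passed the filter. Under PO 1 was called higher (GSTU8, logFC 1.06, adjusted p = 0.0123), and under TO 3 were called higher, namely GSTU8 (1.17, adjusted p = 0.00567), GSTU24 (1.85, adjusted p = 0.0375) and GSTU25 (3.42, adjusted p = 0.0142), all by edgeR. The logFC of GSTU25 rests on 4 to 14 counts per library under DMSO. None of the 18 genes was called lower by edgeR. DESeq2 called 3 of them under PO, namely GSTU8, GSTU24 and GSTU18, of which GSTU18 was lower (logFC −0.48 in edgeR). Under TO DESeq2 called 5, namely GSTU8, GSTU19, GSTU22, GSTU24 and GSTU25, all with a logFC above 0 in edgeR. The median logFC of these 18 genes was −0.05 for PO and 0.13 for TO, beside −0.01 and 0.00 for all tested loci. No gene of glutathione and cysteine supply was called by edgeR (0 of 11 under either steroid, median logFC 0.13 for PO and 0.14 for TO). Unadjusted p was under 0.05 for 2 of them under PO and 3 under TO, and DESeq2 called GSH1, the first enzyme of glutathione synthesis, under PO (logFC 0.41 in edgeR) and APR3 under TO (0.81 in edgeR). Of the genes that handle the conjugates, 9 of 10 were tested and ABCC2, a vacuolar pump for glutathione conjugates, had a logFC of 1.13 under TO (adjusted p = 0.00841, edgeR) and 0.70 under PO (adjusted p = 0.147, edgeR). DESeq2 called ABCC2 under both steroids and ABCC1, a related pump, under TO. Unadjusted p in edgeR was under 0.05 for 7 of the 9 genes under PO and for 5 under TO. These differed in direction. PCS1 was lower under both steroids (logFC −0.44 for PO and −0.60 for TO) and GGT1 was lower under TO (−0.52). The share of all tested loci with such an unadjusted p under PO or TO is not given here. Nothing is therefore read from these counts or from those of the supply genes. The difference of PO and TO for ABCC2 was not called (logFC −0.43, adjusted p = 0.628). Transcripts of the regulators TGA2, TGA5, TGA6 and SCL14 had logFC between −0.04 and 0.11. Of these 4, 0 were called by edgeR, 0 had an unadjusted p under 0.05 and 0 were called by DESeq2.

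The 8 loci whose log2 CPM was most like the mean profile of the 7 members over the 12 libraries had a Pearson r of 0.92 to 0.95. They are the highest among all tested loci outside the cluster and its neighbours. Treatment means were kept, and the members were chosen by their change under the steroids. Loci that differ by treatment therefore rank high by construction, and the list is a description only. They were DJ1A (0.95), a DJ-1 family gene, GSTU8 (0.94), the cytochrome P450 gene CYP72A13 (0.94), the cellulose synthase like gene CSLE1 (0.93), the MEI2-like gene ML5 (0.93), AT1G21000 of the PLATZ family (0.93), the nudix hydrolase gene NUDX15 (0.93) and AT4G34139 (0.92). CYP72A13 was the most abundant of them with 458 ± 76.5 CPM under PO, 545 ± 128 CPM under TO and 159 ± 20.5 CPM under DMSO. DJ1A differed less, with 262 ± 13.2 CPM under PO, 276 ± 16.4 CPM under TO and 174 ± 10.4 CPM under DMSO (SD, n = 4 each). ML5 (logFC 0.28 for PO and 0.34 for TO) and NUDX15 (0.22 and 0.34) changed least and were called under neither steroid by edgeR. AT1G21000 was called under TO only, and the others under both.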

How the data were processed

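RNA of 12 leaf libraries was analysed. The authors deposited raw counts per locus, made, per the labels and methods, with bcl2fastq 2.20, fastp 0.23.2, HISAT2 2.2.1, SAMtools 1.11 and featureCounts 2.0.1 on TAIR10.1. Settings for strand and read pairs are not given in the sources used here. Groups came from the sample labels. The counts were fitted with edgeR 4.0.16 (R 4.3.3; TMM, filterByExpr with a minimum count of 10, quasi-likelihood test, all 12 libraries, treatment only, 9 residual degrees of freedom), with Benjamini-Hochberg adjustment over 23203 loci and a threshold of 0.05. logFC is on the log2 scale with a prior count of 0.125. Tested on simulated data for PO against DMSO (22984 loci), the fit recovered 79 of 99 simulated 2-fold changes and 97 of 100 4-fold ones. The simulated counts had the spread typical of their level, not that of each locus, and changed loci had a mean count of at least 10. These shares need not hold for members with a wider spread. A count of 3, the limit of a count of 0, corresponded to 0.047 to 0.0723 CPM. Intervals of the ratios of summed counts cover counting error only, whereas those of logFC include the spread between libraries. Upstream windows were read from the RefSeq TAIR10.1 genome. Named were the 7 members, all loci between or overlapping them, 3 protein-coding neighbours per side, the 8 most similar loci and 5 after removal of treatment means, called genes of the lists and the regulators. Members and lists were chosen with earlier results of these data known. Alternatives were RLE scaling, no filter, DESeq2 1.42.0, only the groups compared, a replicate block, a prior count of 2, coding length and leaving out each library.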

Additional observations from a re-analysis of the deposited data

Results flagged for a closer look

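The highest or lowest library of a group was checked for its distance from the other 3 in 82 groups of 4 libraries, over the members, their neighbours and the genes most like them. In 6 groups the gap exceeded 0.829 of the range, where chance gives about 5% of groups. GSTU2 was at 0.627 CPM in TO replicate 3, with the other TO libraries at 0.348 to 0.374 CPM. GSTU4 was at 11.7 CPM in DMSO replicate 2, with the others at 6.11 to 6.73 CPM. GSTU5 was at 180 CPM in PO replicate 1, with the others at 140 to 145 CPM. TOPP1 was at 114 CPM in DMSO replicate 1, with the others at 144 to 149 CPM. AtIPCS3 was at 7.8 CPM in PO replicate 3, with the others at 7.02 to 7.14 CPM. NUDX15 was at 21.5 CPM in DMSO replicate 1, with the others at 23.2 to 23.4 CPM. A cause was not tested for any of them.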

How the results depend on the processing

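Leaving out each of the 12 libraries in turn gave 23 to 144 called loci for PO (39 with all libraries), 26 to 73 for TO (66) and 0 for PO against TO. The 144 arose without PO replicate 1, and 23 without DMSO replicate 1 or without PO replicate 4. For TO the count was 43 without DMSO replicate 1, 36 without DMSO replicate 3, 33 without TO replicate 2 and 26 without TO replicate 3. Members called stayed at 2 for PO and at 2 to 3 for TO. DESeq2 called 318 loci for PO, 297 for TO and 4 for PO against TO, and all loci with at least 1 count gave 60 for PO; the cause was not tested. In 21 member contrasts with 376 alternative values, 351 kept direction and side of the threshold. GSTU1 and GSTU7 were called in each alternative for both steroids. GSTU2 was called under PO by DESeq2 (logFC 2.67). Under TO it was not called with only the 2 groups compared (2.83), with the replicate block (2.78) or in 8 of 12 fits without 1 library (2.59 to 3.02). Signs changed for values near 0 when 1 library was left out: GSTU6 under PO (−0.23 to 0.28), and for PO against TO GSTU2 (−0.55 to 0.03), GSTU3 (−0.55 to 0.27) and GSTU5 (−0.10 to 0.03, and 0.00 without the filter). The replicate block gave 50 loci for PO, 73 for TO and 0 for PO against TO, with 2, 2 and 0 members. Deviations of libraries with the same number had r between −0.126 and 0.165. The same number gave the highest r for replicates 1 and 4 of PO and DMSO and for replicate 4 of PO and TO. In all other cases a library of another number had a higher r. Whether libraries of the same number were handled together cannot be told from these values. Coding length moved 18 of 21 levels per kb by more than 1 SD and changed no order. The counts of GSTU2 and GSTU3 under DMSO limit what their folds can show.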

Other observations

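With treatment means removed, the loci most like the members' mean profile were AT1G34300, a lectin protein kinase gene (r = 0.95), CEJ1 (0.94), an ERF factor gene responsive to ethylene and jasmonate, SIS (0.94), PIRL3 (0.93) and AT1G10350, a DNAJ family gene (0.93), over 12 libraries. They are the highest among all tested loci outside the cluster and its neighbours. How high an r arises by chance among so many loci was not tested. The members themselves did not scatter together (median r −0.05).

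GSTU25 had the largest logFC of the tested tau genes outside the cluster. It had only 8, 10, 14 and 4 counts under DMSO, however, and passed the filter on low counts only through the steroid libraries. These counts limit what its fold can show. Its level was 0.582 ± 0.401 CPM under PO and 1.87 ± 0.848 CPM under TO, against 0.174 ± 0.0901 CPM under DMSO (SD, n = 4 each). The logFC of PO over TO was −1.70 (adjusted p = 0.628, edgeR). APR3, an enzyme of sulfate reduction, had 32.5 ± 5.91 CPM under PO, 42.2 ± 8.18 CPM under TO and 24 ± 8.1 CPM under DMSO, and was not called (adjusted p = 0.42 for PO and 0.168 for TO, edgeR).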
